A study of Mus musculus with 8 samples.

Results

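The E2F1 probes are DNA oligonucleotides whose spot name on the array contains E2F1, and every printed sequence with such a name was taken, whatever its signal. They comprise 194 different sequences of the 122095 on the array, printed as 1000 spots under 200 names. The names run over 100 numbers, each with a forward form and a form ending in _rev, and each name has 5 spots. Each sequence has 60 bases, of which the first 27 vary and the last 33 are an end shared with 122086 of all sequences. On this array, mouse antibodies against UV lesions were read out by Alexa 488 fluorescence on DNA that had or had not been exposed to UV. An antibody against cyclobutane pyrimidine dimers (CPDs, diluted 1:400) was applied to 2 UV arrays and 2 arrays without UV. An antibody against 6-4 photoproducts (6-4PPs, diluted 1:80) was likewise applied to 2 UV and 2 non-UV arrays, which gives 8 arrays in 4 groups. Mouse, the organism in the labels, describes the antibodies and not the DNA. The labels used here state neither the dose of UV nor how the arrays were stained or made double-stranded. Nothing in the labels says that the 2 arrays of a group were prepared separately, so p-values measure only the spread between these arrays, which may be technical.

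E2F1 is a transcription factor that switches on genes for DNA synthesis and entry into the cell cycle, and its sites are rich in G and C around a GCGC or GGCG core. UV light joins neighbouring pyrimidines of a strand, either through a cyclobutane ring, which gives a CPD, or through a single bond, which gives a 6-4PP. Either lesion therefore lies at a dipyrimidine step, which is TT, TC, CT or CC read on the printed or the complement strand. Both lesions are repaired by nucleotide excision in cells, and each antibody recognises its own lesion.

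The following sequences carry the results. They are the first 27 bases, 5′ to 3′ on the printed strand, which is the strand the files give. Capitals mark the TT or TC step, written AA or GA where the step lies on the complement strand, and otherwise a run of pyrimidines on the printed strand. The first group has no dipyrimidine step on either strand or CC and CT steps only, and holds the partners of the sequences that follow.
E2F1_10_rev: atgcacgcgcgcgtgtatgtatgcacg
E2F1_81: atgcatacgcgcgcgtatgtatgcacg
E2F1_20: tatgcaCCgcgcgcgtatgtatgcacg
E2F1_25: tatgcatgggcgCCatatgtatgcacg
E2F1_37_rev: atgcatggcgCCacgtatgtatgcacg
E2F1_42_rev: atgcatgcgcgCCTgtatgtatgcacg
The second group carries a TT step, after A, C or G, on the printed strand or on the complement.
E2F1_18: tatgcaTTggcgccatatgtatgcacg
E2F1_18_rev: tatgcatggcgccAAtatgtatgcacg
E2F1_71: atgcaTTgcgcgccgtatgtatgcacg
E2F1_71_rev: gtatgcggcgcgcAAtatgtatgcacg
E2F1_63_rev: atgcacgcgcgcTTgtatgtatgcacg
E2F1_36: atgcatggcgccTTgtatgtatgcacg
E2F1_75_rev: tatgcgcgcgcgTTgtatgtatgcacg
E2F1_75: tatgcAAcgcgcgcgtatgtatgcacg
The third group carries a TC step.
E2F1_53: tatgcaTCgcgcgcgtatgtatgcacg
E2F1_94: atgcaTCcgcgcgcgtatgtatgcacg
E2F1_93_rev: atgcatggcgccTCgtatgtatgcacg
E2F1_61_rev: gtatgcggcgcgcGAtatgtatgcacg
The shared end that follows each of them, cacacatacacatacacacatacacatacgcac, holds 0 dipyrimidine steps on either strand.

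The E2F1 probes are poor in dipyrimidine steps. They hold a median of 2 steps in the first 27 bases over both strands (0 to 5), against a median of 5 over all sequences on the array. Their G and C content has a median of 55.6% (48.1 to 63.0%), against 51.9% over all. All 194 hold GCGC, which 49.7% of all sequences hold, and 140 hold GGCG on either strand, against 9.21% of all. The palindrome GGCGCC is in 73 of them, against 0.257% of all, and GCGCGC in 109, against 3.34%. The site form TTGGCGC is in 11, against 0.229%. Also searched on both strands were TTTCCCG and then TTTCGCG and TTTGCCG, followed by TTTGGCG and TTCCCGC, and by TTCGCGC and TTGCCGC. No E2F1 probe holds any of them (0 of 194, against 0.0983 to 0.888% of all sequences), which says only that these letters are not in this window. By step, 12 sequences have none, 77 have CC steps only, and 33 have a CT step apart from any CC. A CCT run without TT or TC lies on the printed strand of 14 sequences and on the complement of 13. TT lies on the printed strand of 12 and on the complement of 13, and TC lies on the printed strand of 10 and on the complement of 10. All 25 TT steps are followed by G.

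Values are the deposited adjusted intensity, a linear brightness with no background subtracted, averaged as log2 over the spots of a sequence. After UV the 2 arrays of a group were correlated over the 194 sequences, with a Pearson correlation of 0.936 for CPD and 0.961 for 6-4PP. For CPD it spans 25 sequences with TT, at a median of 4427, and 169 others, at 1665. It does not show that those 169 kept their order. Without UV the correlations were near 0 (-0.005 for CPD and 0.052 for 6-4PP), so the non-UV values of single E2F1 sequences were not told apart. Single bright spots moved with the array number. Spots over 4 times the median of their sequence numbered 2 to 8 per array. The 4 on the first non-UV CPD array were all among the 8 on the first non-UV 6-4PP array, the 3 on the second were all among its 6, and the 5 on the second UV 6-4PP array were all among the 7 on the second UV CPD array. The first UV arrays had 2 each and shared 1. Arrays that differed in UV condition or number shared 0 such spots. Over all 122095 sequences, the difference between replicates 1 and 2 correlated across sequences at 0.765 between the antibodies without UV and at 0.707 with UV, and between -0.003 and 0.001 for every other pair of groups. Arrays of the same UV condition and number were thus not independent between the antibodies, and the labels do not say what they share.

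Staining of the E2F1 probes rose with UV for both antibodies, by less than that of the array as a whole. The median over the 194 sequences was 1144 ± 136 (SD, n = 2) without UV and 1692 ± 4.5 with UV for CPD. For 6-4PP it was 1384 ± 201 and 2301 ± 50.6. On the log2 scale these medians rose by 0.57 (1.48-fold) and 0.74 (1.67-fold). The array medians over all sequences were 1231 and 1042 without UV and 3733 and 3388 with UV for CPD, and 1511 and 1231 against 6628 and 6624 for 6-4PP. In limma without centring, 161 of 194 E2F1 sequences rose for CPD, where 92.0% of all sequences did, and 178 rose for 6-4PP, where 96.0% did (adjusted p under 0.05). In this fit 0 of 194 fell for either antibody, where 0.00164% of all sequences fell with each, and 0 fell at an unadjusted p under 0.05.

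Relative to the median of each array, most E2F1 sequences fell with UV, the opposite of the direction without centring. The median E2F1 change became -1.08 for CPD and -1.54 for 6-4PP, beside -0.03 and -0.055 over all sequences. An exact two-sided permutation test of the array medians gave p = 0.33 for each, the smallest that 2 against 2 arrays can give. For CPD 13 sequences rose (39.5% of all sequences rose) and 171 fell (40.2% of all). For 6-4PP 9 rose (36.4% of all) and 180 fell (39.9% of all). Quantile normalization in place of centring kept the direction, with medians of -0.774 and -0.822, but left 9 calls for CPD and 16 for 6-4PP, all of them falls. It called 0 of the single-base pairs described further on (33 for CPD and 32 for 6-4PP at an unadjusted p under 0.05 in limma). Over the whole array it called 8427 of 122095 sequences for CPD, 6561 for 6-4PP and 0 of 638305 single-base pairs. With the dimmest 25% of sequences left out, 33 E2F1 probes were tested, of which 5 rose and 19 fell for CPD. For 6-4PP 0 rose in limma (0 at an unadjusted p under 0.05) and 23 fell, where 28752 of all sequences rose and 30795 fell. On the centred scale over all sequences, all 13 CPD rises and all 9 6-4PP rises were sequences with a TT step.

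The 12 sequences without a step gave the floor of the E2F1 set. After UV their median was 1580 ± 16.4 (n = 2) for CPD and 1928 ± 59.6 for 6-4PP, 1.41-fold and 1.40-fold above non-UV by the median change. E2F1_10_rev, for example, read 1245 and 1027 without UV and 1570 and 1593 with UV for CPD. For 6-4PP it read 1534 and 1108 without UV and 1780 and 1717 with UV. Both UV arrays stood above both non-UV arrays with either antibody, although the sequence has no site for a lesion in its 27 bases or in the shared end. What raised it was not tested.

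CC steps, and CT steps apart from them, gave class medians near those of the sequences without a step, and CCT runs stood higher for 6-4PP. The 77 sequences with CC only had a UV median of 1638 ± 9.7 for CPD and 2149 ± 14.3 for 6-4PP, which is 1.04 and 1.11 times the level of the sequences without a step. Within this class the 6-4PP level went from 2062 ± 11 with 1 step to 2482 ± 30.7 with 5 steps (22 and 2 sequences), while the CPD level stayed between 1611 and 1666. CT steps apart from CC gave median ratios of 1.11 and 1.12, but single sequences of that class ranged from 1781 to 3618 for 6-4PP (E2F1_28_rev and E2F1_80). From medians over spots, E2F1_55 read 3175 and 3030, E2F1_72_rev 3093 and 3248, E2F1_87_rev 3133 and 3262, and E2F1_80 2935 and 2762 on the UV arrays, near the level of CCT. These 4 were picked after their values were seen, and each carries CT and a run of C apart from it on the printed strand. The 14 sequences with CCT on the printed strand stood higher for 6-4PP, at 3003 ± 46.9 or 1.56 times the floor, against 1.14 times for CPD. With CCT on the complement the ratios were 1.23 and 1.08. Non-UV levels of all these classes lay between 1.00 and 1.05 times those of the sequences without a step.

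TT steps carried the highest CPD levels. On UV arrays the 12 sequences with TT on the printed strand had a CPD median of 6234 ± 112, which is 3.95 times the floor, and the 13 with TT on the complement had 3736 ± 514, which is 2.37 times. On the centred scale none of the 169 sequences without TT was among the CPD rises, and their median was 1665 ± 13.0. Without centring 136 of them rose in limma (92.0% of all sequences did), by a median of 1.47-fold. E2F1_18 was the brightest. It read 1405 and 1069 without UV and 11917 and 9788 with UV, an 8.81-fold rise without centring. Its centred change was 1.49 ± 0.11 (SE, adjusted p = 5.25e-05 in limma). E2F1_41_rev (1.25 ± 0.09, adjusted p = 4.56e-05), E2F1_71 (1.17 ± 0.08, adjusted p = 4.06e-05) and E2F1_14 (1.16 ± 0.10, adjusted p = 9.15e-05) followed, and all 4 carry ATTG on the printed strand.

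The base before the TT step ordered the CPD levels. With TT on the printed strand, the 6 sequences with ATTG had a UV median of 8283 ± 944 (sequence means 7321 to 10853). The 5 with CTTG had 4908 ± 444 (4435 to 5143), and E2F1_75_rev, the only one with GTTG, had 3587 ± 193. These 3 sets did not overlap. On the complement the order was the same and the levels were lower, with 4343 ± 412 for the 7 sequences with ATTG, 2346 ± 175 for the 5 with CTTG and 2089 ± 68.0 for E2F1_75. Differences between contexts were not tested. Among E2F1 probes the printed ATTG steps start at base 6 or 7 and the printed CTTG and GTTG steps at base 13, so context and position cannot be told apart within the set.

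For 6-4PP the printed contexts ATTG and CTTG gave similar levels and GTTG stood apart. Printed ATTG gave a UV median of 9463 ± 589 and printed CTTG 8631 ± 305, 4.91 and 4.48 times the floor. On the complement ATTG stood above CTTG, at 5053 ± 41.0 and 3908 ± 11.2, which is 2.62 and 2.03 times the floor. The 4 highest centred 6-4PP changes belonged to E2F1_63_rev (0.56 ± 0.10, adjusted p = 0.00212), E2F1_18 (0.56 ± 0.11, adjusted p = 0.0035), E2F1_36 (0.55 ± 0.09, adjusted p = 0.00112) and E2F1_41_rev (0.45 ± 0.09, adjusted p = 0.0034). With the dimmest 25% of sequences left out, each array was centred on the median of the brighter rest. The readings of these 4 sequences stayed as they were. Against that moved reference their changes were 0.152, 0.15, 0.146 and 0.043, and limma called none (adjusted p 0.171 to 0.692). Under quantile normalization E2F1_18 and E2F1_41_rev turned to -0.167 and -0.143, not called. E2F1_63_rev read 1453 and 1283 without UV and 9189 and 10377 with UV. For CPD the same sequence read 1216 and 1015 without UV and 5222 and 5063 with UV. The UV arrays lay far above the non-UV arrays for both antibodies.

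E2F1_75_rev and E2F1_75, the single GTTG sequences of each strand, were among the 3 sequences with the largest gap between the antibodies in favour of CPD, and E2F1_75_rev had the largest. E2F1_75_rev read 1273 and 1072 without UV and 3724 and 3450 with UV for CPD. For 6-4PP it read 1498 and 1412 without UV and only 2248 and 2222 with UV. The UV arrays were above the non-UV arrays in both cases, but the 6-4PP level was 1.16 times the floor, where printed ATTG and CTTG gave 4.91 and 4.48 times. The difference of the centred UV effects, CPD minus 6-4PP, was 1.63 ± 0.14 (adjusted p = 0.000383), and without centring it was 1.00 ± 0.23 (adjusted p = 0.00972). E2F1_75, with GTTG on the complement, read 2137 and 2041 for CPD and 1907 and 1972 for 6-4PP after UV, the latter at 1.01 times the floor. Its difference of 1.06 ± 0.11 (adjusted p = 0.000729) fell to 0.43 without centring (adjusted p = 0.219). E2F1_71_rev, with ATTG on the complement, lay between them, at 1.24 ± 0.14 (adjusted p = 0.000879), or 0.61 without centring (adjusted p = 0.148). It had a bright non-UV 6-4PP spot, and from medians over spots its difference was 1.156 (adjusted p = 0.00366).

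TC steps showed in the 6-4PP signal, while their CPD levels stayed near the floor. The 10 sequences with TC on the printed strand had a 6-4PP UV median of 5321 ± 54.4 (2.76 times the floor), and the 10 with TC on the complement had 3559 ± 25.1 (1.85 times). Their CPD medians were 1727 ± 41.2 and 1644 ± 17.9, which is 1.09 and 1.04 times the floor. On the single CPD UV arrays the ratios were 1.12 and 1.07 for printed TC, and 1.04 on both for TC on the complement. Whether so small a rise is due to TC was not tested. E2F1_94, with TCC after A, read 1533 and 1111 without UV and 5875 and 5997 with UV for 6-4PP. For CPD it read 1258 and 999.4 without UV and 1690 and 1762 with UV, within the range of sequences with CC only. Printed ATCG gave 5623 ± 118 and printed CTCG 5153 ± 91.4 for 6-4PP. The printed ATCG steps start at base 6 or 7 and the CTCG steps at base 13, so context and position cannot be told apart here either.

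The antibodies differed in 116 of 194 sequences on the centred scale, 106 toward CPD (33.6% of all sequences) and 10 toward 6-4PP (18.1% of all). All 10 toward 6-4PP carry TC and no TT. The largest were E2F1_94 (-0.93 ± 0.15, adjusted p = 0.0033), E2F1_93_rev (-0.92 ± 0.14, adjusted p = 0.00252) and E2F1_70 (-0.79 ± 0.13, adjusted p = 0.00309). Of the 106 toward CPD, 91 have neither TT nor TC. These 91 depend on the centring: without it, 1 sequence differed toward CPD, which is E2F1_75_rev (6.57% of all sequences), and 16 toward 6-4PP (27.9% of all), all with TC. The total fell to 65 without the first non-UV CPD array, to 66 without the second, and to 75 without the second UV CPD array.

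Pairs of sequences that differ at 1 base need no centring, since the array median cancels. The E2F1 set holds 366 such pairs over 192 of its sequences. Each was read as the change from the member with fewer to the member with more of the first step type, in the order TT, TC, CT, CC, in which the 2 differ. A pair can lose a step of a later type at the same base. Pairs share sequences and are not replicates of each other. For CPD 48 pairs rose with UV (20.6% of the 638305 pairs on the array) and 0 fell (2.47% of all). At an unadjusted p under 0.05, 4 pairs fell, and limma with a trended, robust prior gave 48 and 0 as well.

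For CPD, nearly all pairs that were called as rises had gained TT. All 29 pairs that gained TT on the printed strand rose (67.4% of such pairs on the array), with a median of 1.73, and 18 of 31 that gained it on the complement rose (27% of all such pairs), with a median of 0.77. The remaining rise was 1 of 47 pairs that gained CT on the printed strand (3.99% of all such pairs), E2F1_24_rev to E2F1_45_rev at C14T (0.52 ± 0.12, adjusted p = 0.0247), named after its value was seen. By limma, 0 of 51 pairs that gained TC were called in either direction (6.11% of such pairs on the array for the printed strand and 7.01% for the complement), and 1 fell at an unadjusted p under 0.05. Likewise 0 of 71 pairs without a step change were called (7.82% of all such pairs), with 2 falls at an unadjusted p under 0.05. The trended, robust fit called 0 in both sets as well. Median changes for TC gains were near 0, at -0.003 on the printed strand and -0.02 on the complement. In simulated data, CPD changes of 0.5 in single-base pairs were called in 46.0% and changes of 0.2 in 8.0%. Small changes could therefore go uncalled.

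The largest CPD change of a pair was E2F1_25 to E2F1_18, G8T counted from the printed 5′ end. It completes the TT step printed above for E2F1_18. The CPD UV means were 1560 ± 28.0 and 10853 ± 1506, and the change with UV was 2.68 ± 0.16 (6.43-fold, adjusted p = 0.000323). The same substitution G8T from E2F1_84_rev to E2F1_41_rev gave 2.47 ± 0.12 (adjusted p = 0.000322), and G7T from E2F1_49 to E2F1_85 gave 2.48 ± 0.14 (adjusted p = 0.000322). C8T from E2F1_96 to E2F1_18, which turns TC into TT, gave 2.51 ± 0.13 (5.7-fold, adjusted p = 0.000322). C7T from E2F1_61 to E2F1_71 gave 2.64 ± 0.42 (adjusted p = 0.00555), with 1 bright non-UV spot of E2F1_61 behind its large error, and 2.245 from medians over spots.

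For 6-4PP 98 of 366 pairs rose (23.0% of all pairs) and 1 fell (7.05% of all). Gaining TT on the printed strand raised 24 of 29 (39.1% of all such pairs) and on the complement 19 of 31 (15.4% of all such pairs). Gaining TC raised 23 of 26 on the printed strand (42.8%) and 20 of 25 on the complement (23.8%), with medians of 1.28 and 0.80. Gaining CC on the printed strand raised 5 of 35 (7.26%) and gaining CT on the printed strand 5 of 47 (16.7%). The other rises were 1 of 51 pairs that gained CT on the complement (6.61%) and 1 of 3 that gained it on both strands (22.7%). The 10 printed-strand CC and CT rises lie at bases 12 to 14 or base 8. The printed-strand share for CC lay above that of such pairs on the array and the share for CT below it. In the 71 pairs without a step change, limma called 0 (16.8% of all such pairs were called in either direction), and 0 passed an unadjusted p under 0.05 with either prior.

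Of those printed-strand CC and CT rises, 8 of 10 end in a sequence with a CCT run on the printed strand. The same share among pairs not called is not given here, so the 8 of 10 cannot be weighed against it. E2F1_62 to E2F1_42_rev (G13C), which completes the CCT run printed above for E2F1_42_rev, took the 6-4PP UV level from 1909 ± 30.6 to 2982 ± 176 (0.74 ± 0.14, adjusted p = 0.0104). E2F1_29 to E2F1_39_rev (G13C) took it from 1933 to 3162 (0.69 ± 0.14, adjusted p = 0.0126), and E2F1_7_rev to E2F1_8_rev (G12C) from 2006 to 3037 (0.58 ± 0.13, adjusted p = 0.017). The CPD UV means of the first of these pairs were 1550 and 1848, a change not called. These pairs were picked after their values were seen, as examples of runs that end in CCT.

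The largest 6-4PP rises were all TT gains on the printed strand. G13T from E2F1_10_rev, which has no step, to E2F1_63_rev raised the UV level from 1749 ± 44.9 to 9783 (2.42 ± 0.16, 5.34-fold, adjusted p = 0.000503). The same change raised CPD 3.31-fold (1.73 ± 0.16, adjusted p = 0.000674). A13T from E2F1_23_rev to E2F1_36 gave 2.69 ± 0.47 (adjusted p = 0.00709), or 2.067 from medians over spots. G8T from E2F1_25 to E2F1_18 gave 2.26 ± 0.16 (adjusted p = 0.000517), A13T from E2F1_21 to E2F1_86 gave 2.20 ± 0.16 (adjusted p = 0.000527), and G7T from E2F1_49 to E2F1_85 gave 2.18 ± 0.14 (adjusted p = 0.000503).

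The single 6-4PP fall was E2F1_53 to E2F1_75. T7A removes the TC step of the printed strand and makes a GTTG on the complement. The 6-4PP readings after UV were 5258 and 5539 for E2F1_53 and 1907 and 1972 for E2F1_75, and the arrays of the pair did not overlap. The change with UV was -1.52 ± 0.12 (0.35-fold, adjusted p = 0.000564). For CPD the change was 0.29 ± 0.12, which was not called (adjusted p = 0.134). Neither of the 2 pairs that gained the printed GTTG of E2F1_75_rev rose for 6-4PP, with changes of 0.14 ± 0.18 (from E2F1_11_rev, C13T) and 0.04 ± 0.13 (from E2F1_67_rev, G13T). Both rose for CPD, by 1.19 (adjusted p = 0.00459) and 0.98 (adjusted p = 0.00244), and both differed between the antibodies (adjusted p = 0.0454 and 0.0228).

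Turning TC into TT at the same place separated the antibodies. C8T from E2F1_96 to E2F1_18 raised CPD by 2.51 and 6-4PP by 0.85 ± 0.13 (1.8-fold, adjusted p = 0.00372), a difference of 1.66 ± 0.18 (adjusted p = 0.00811). G14A from E2F1_61_rev to E2F1_71_rev, the same exchange on the complement, raised CPD by 1.16 ± 0.14 (adjusted p = 0.00192). For 6-4PP it gave -0.40 ± 0.14 (adjusted p = 0.0814), and the difference was 1.56 ± 0.20 (adjusted p = 0.00973). From medians over spots the difference was 1.508 (adjusted p = 0.0275). The 6-4PP UV means did not fall, at 3553 in E2F1_61_rev and 3662 in E2F1_71_rev. The negative change came from the non-UV arrays, and a spot of E2F1_71_rev read 6242 on the first non-UV 6-4PP array. The pair E2F1_53 to E2F1_75 had the largest difference toward CPD, 1.81 ± 0.17 (adjusted p = 0.00805).

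Over all 366 pairs the change differed between the antibodies in 43, of which 7 went toward CPD (8.22% of all pairs) and 36 toward 6-4PP (5.41% of all). All 36 gained TC: 23 of the 26 pairs on the printed strand (23.5% of such pairs on the array) and 13 of the 25 on the complement (8.42%). All 7 gained TT, 4 of the 29 pairs on the printed strand (27.6% of such pairs on the array) and 3 of the 31 on the complement (12%), which is no more than such pairs in general. The largest toward 6-4PP were A13T from E2F1_37_rev to E2F1_93_rev (-1.53 ± 0.17, adjusted p = 0.00834), A7C from E2F1_81 to E2F1_94 (-1.45 ± 0.25, adjusted p = 0.0177) and G13T from E2F1_11 to E2F1_70 (-1.44 ± 0.35, adjusted p = 0.0444). In the first of these, 6-4PP rose by 1.38 ± 0.12 (2.6-fold) and CPD changed by -0.16 ± 0.12 (adjusted p = 0.426). E2F1_11 had a bright spot on each first UV array. The count of 43 fell to 5 without either non-UV CPD array, to 13 and 18 without the first and second UV CPD array, and to 14 and 16 without the first and second UV 6-4PP array. E2F1_81 to E2F1_94 then lost its call without each of these 6 arrays in turn (adjusted p 0.0512 to 0.0691), and E2F1_11 to E2F1_70 without any array but the second UV CPD array (0.0707 to 0.137).

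Forward and reverse names place the same 11 bases of site on opposite strands, and 98 of the 100 numbers give such a pair. Names 20 and 21 were left out because their forward and reverse inserts share only 5 and 4 bases in reverse complement. No 2 of the 27-base sequences on the array are exact reverse complements. In the pairs with a TT step, the printed form was set against the complement form. It was higher in 13 of 13 for CPD, with 12 called, and in 13 of 13 for 6-4PP, with 11 called. These 13 pairs hold only 12 different printed sequences, so they are not all separate comparisons. The median ratios were 1.98 (1.26 to 2.38) and 2.0 (1.08 to 2.95). Both low ends are the pair of E2F1_31_rev, the printed form, and E2F1_31. On the first non-UV arrays a spot of E2F1_31_rev read 18045 for CPD, and spots read 15701 and 14369 for 6-4PP. From medians over spots its 6-4PP readings after UV were 9607 and 9708, against 5082 and 4958 in E2F1_31. In all 98 pairs, 17 were called in either direction for CPD (41.5% of the 2886 such pairs on the array) and 37 for 6-4PP (64.5%). The strand difference itself differed between the antibodies in 5 of the 98 (26.1%). This count was not stable: it was 26 with the antibodies paired by array number, which was chosen after seeing the data, 19 from medians over spots, and 2 to 9 with single arrays left out.

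E2F1_18 against E2F1_18_rev showed the largest CPD ratio, 2.38 (1.25 ± 0.10, adjusted p = 7.41e-05), with UV readings of 11917 and 9788 against 4634 and 4051. E2F1_63_rev, with its TT printed, exceeded E2F1_63 by 1.12 ± 0.11 (2.18-fold, adjusted p = 0.000192) for CPD and by 1.56 ± 0.11 (2.95-fold, adjusted p = 6.89e-05) for 6-4PP. E2F1_71 exceeded E2F1_71_rev by 1.12 ± 0.10 (adjusted p = 0.000129) and 1.42 ± 0.10 (adjusted p = 6.84e-05). From medians over spots these became 1.004 and 1.125, both still called. A spot of E2F1_71_rev read 6242 on the first non-UV 6-4PP array. E2F1_36 exceeded E2F1_36_rev by 1.29 ± 0.12 for 6-4PP (adjusted p = 0.000133). For the 10 pairs with TC, the printed form was higher in 9 for 6-4PP, all 9 called, at a median ratio of 1.44. Of all forward and reverse pairs on the array, whatever their steps, 64.5% were called for 6-4PP and 41.5% for CPD. For CPD the printed form was higher in 5 of the 10 pairs with TC, at a median ratio of 1.01 (0.78 to 1.42). Of these 10, limma called 0 in either direction, with 0 at an unadjusted p under 0.05 and 0 called with a trended, robust prior. Both ends of this range involve a sequence with a single bright non-UV spot, which read 20761 in E2F1_16 (ratio 1.42) on the first CPD array and 23140 in E2F1_61 (ratio 0.78) on the second. The E2F1_61 spot read 65669 on the second non-UV 6-4PP array, and its pair is the 1 of 10 with the printed form lower for 6-4PP (0.93). Printed and complement forms also differ in where the step lies along the oligonucleotide, and strand and position cannot be told apart in these pairs.

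The same contexts were set beside the rest of the array, in sequences under other names whose 27 bases hold a single pyrimidine run. For CPD after UV, printed ATTG gave 10124 (146 sequences), GCTTG 4395 (40) and GTTG 3724 (118). For 6-4PP the same 3 gave 9394, 8092 and 2289. Sequences of other names without a step gave 1610 for CPD and 1953 for 6-4PP (538 sequences). Among E2F1 probes with a single run, E2F1_63_rev (CTTG) had 5143 and 9783 and E2F1_75_rev (GTTG) had 3587 and 2235, so the low 6-4PP level of GTTG was seen under both kinds of name. For TC, printed ATCG gave 5492 (145 sequences) and GCTCG 4793 (42) for 6-4PP, with 1778 and 1674 for CPD. ATCCG, the run of E2F1_94, gave 7046 (67 sequences) for 6-4PP against 5936 ± 86.2 in E2F1_94.

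In those other sequences the runs start at many bases, and they were split at base 10. Printed ATTG that starts within the first 10 bases gave a CPD level of 9353 ± 425 (65 sequences), and later starts gave 10783 ± 1020 (81 sequences). Printed GCTTG gave 4354 ± 184 and 4464 ± 347, and printed GTTG gave 3536 ± 186 and 3804 ± 186. For 6-4PP, printed GTTG gave 2205 ± 41.8 early and 2322 ± 56.6 late. The CPD order, with ATTG above GCTTG and GCTTG above GTTG, was the same in both parts, although GCTTG also holds a CT step that the others lack. On the complement, early and late ATTG gave 3652 ± 259 and 4150 ± 248 for CPD, below printed ATTG at either place. These are descriptions of other sequences, with no test.

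A fit on counts of steps over the whole array left residuals in the E2F1 probes. A least-squares model over all sequences predicted the centred log2 signal from how many of each step a strand held. In it the E2F1 set lay below the fit on UV arrays by a median residual of -0.42 and -0.39 for CPD and of -0.47 on both 6-4PP arrays. Without UV the median residuals lay between -0.07 and -0.02. The 12 sequences without a step lay below the fit by -0.57 and -0.48 for CPD and -0.6 and -0.55 for 6-4PP. Yet their UV levels, 1580 and 1928, were near the 1610 and 1953 of sequences of other names without a step. Residuals of other sequences with few steps were not computed, so the shortfall cannot be called particular to the E2F1 names. The printed ATTG sequences lay above the fit (0.99 and 0.85 for CPD, 0.94 and 1.05 for 6-4PP). The printed GTTG sequence lay below it (-0.29 and -0.30 for CPD, -0.84 and -0.88 for 6-4PP).

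The lowest E2F1 values rest in part on bright non-UV spots. For CPD they were E2F1_23_rev (-1.67 ± 0.47, adjusted p = 0.0145), E2F1_16 (-1.62 ± 0.30, adjusted p = 0.00216), E2F1_89_rev (-1.58 ± 0.41, adjusted p = 0.01) and E2F1_61 (-1.47 ± 0.42, adjusted p = 0.0157). A single spot of E2F1_23_rev read 64486 on the first non-UV CPD array and 62592 on the first non-UV 6-4PP array, where the sequence's median spots were 1291 and 1586. From medians over spots the 4 changes became -1.112, -1.183, -1.143 and -1.059, near the median of the set, and all stayed called. Without the array that holds the bright spot, E2F1_23_rev (-1.087, adjusted p = 0.0704), E2F1_89_rev (-1.21, adjusted p = 0.0577) and E2F1_61 (-1.037, adjusted p = 0.0858) lost their calls. Leaving out either UV CPD array also ended the call of E2F1_23_rev (adjusted p = 0.0624 and 0.0514), and leaving out the first ended that of E2F1_61 (adjusted p = 0.072).

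The lowest 6-4PP values were those of E2F1_89_rev (-2.18 ± 0.41, adjusted p = 0.00247), E2F1_23_rev (-2.14 ± 0.47, adjusted p = 0.00526), E2F1_29_rev (-1.99 ± 0.09, adjusted p = 3.19e-05) and E2F1_87 (-1.98 ± 0.20, adjusted p = 0.000145). From medians over spots they became -1.734, -1.589, -1.895 and -1.628. E2F1_29_rev, which has 1 CT step, was thus low with either summary. Its 6-4PP readings were 1659 and 1464 without UV and 1897 and 1926 with UV, close together but not overlapping.

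The 4 sequences with the most single-base partners, 8 each, hold CC or CT steps only and lay in the low range. Their centred changes for CPD were -0.93 ± 0.21 in E2F1_11, -1.11 ± 0.09 in E2F1_17, -1.24 ± 0.09 in E2F1_20 and -0.97 ± 0.09 in E2F1_20_rev. For 6-4PP they were -1.58 ± 0.21, -1.73 ± 0.09, -1.78 ± 0.09 and -1.47 ± 0.09. All were past the threshold, and without centring the changes of all 4 were above 0 with both antibodies. E2F1_20 read 1634 and 1495 after UV for CPD, at the floor of the set, although its CC step follows the same A as the TT of E2F1_18.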

How the data were processed

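The authors deposited, per the file headers, linear Alexa 488 intensity values for 180880 spots on each of 8 arrays: the scanner value, a normalised value equal to it, and an adjusted intensity corrected for the local neighbourhood. Scanner software: not given in the sources used here. No spot carried a flag (0 flagged), and 0 to 2 E2F1 spots per array were saturated. The adjusted intensity was taken as log2, averaged over the E2F1-named spots of a sequence and centred on the array median. Another 159 spots print 51 of these sequences under other names and were used only as an alternative.

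Groups were compared with limma 3.58.1 (lmFit, eBayes; R 4.3.3) in 1 fit over all 8 arrays and 122095 sequences, 638305 single-base pairs or 2886 name pairs, with Benjamini-Hochberg adjustment and a threshold of 0.05. The reverse-complement comparison as planned had 0 pairs, and pairs by name, sharing 11 bases, were added after seeing the data. The fits were tested on simulated data. Python 3.11.15, numpy 2.4.6, pandas 2.3.3 and scipy 1.17.1 were used otherwise.

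Named were, per antibody, the 4 highest and 4 lowest sequences past the threshold, the 5 largest pair changes each way and the 3 largest name pairs; the 3 largest antibody differences each way, of sequences and of pairs; and the 4 sequences with most single-base partners. The members, lists and rules were chosen with earlier results of these data known. Intensities carry no counts, so the number of arrays limits the precision.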

Additional observations from a re-analysis of the deposited data

Results flagged for a closer look

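In 6 sequences and 6 single-base pairs, each among the 3 largest either way, the UV effect differed between the antibodies by limma's test of the difference itself. All values are log2, CPD minus 6-4PP. Toward CPD the sequences were E2F1_75_rev (1.627), E2F1_71_rev (1.242) and E2F1_75 (1.058), which carry a TT step and no TC. Toward 6-4PP they were E2F1_94 (-0.934), E2F1_93_rev (-0.916) and E2F1_70 (-0.793), which carry a printed TC step and no TT. The UV arrays lay above the non-UV arrays in all 6 sequences for each antibody.

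Among pairs, the difference went toward CPD from E2F1_53 to E2F1_75 (1.811), from E2F1_96 to E2F1_18 (1.66) and from E2F1_61_rev to E2F1_71_rev (1.558). In each of these a TC step is lost as a TT step is gained. It went toward 6-4PP from E2F1_37_rev to E2F1_93_rev (-1.532), from E2F1_81 to E2F1_94 (-1.454) and from E2F1_11 to E2F1_70 (-1.442), where a printed TC step is gained. The last 2 lost their call when single arrays were left out, with adjusted p of 0.0512 to 0.0691 and 0.0707 to 0.137. With the antibodies paired by array number, chosen after seeing the data, all 12 stayed called.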

How the results depend on the processing

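Without centring, the medians over E2F1 probes turned to 0.57 (CPD) and 0.741 (6-4PP), and 17 sequences in place of 116 differed between the antibodies. The changes for CPD became 0.026 in E2F1_16, 0.069 in E2F1_89_rev, 0.182 in E2F1_61, 0.722 in E2F1_11, 0.544 in E2F1_17, 0.412 in E2F1_20 and 0.678 in E2F1_20_rev. For 6-4PP they became 0.1 in E2F1_89_rev, 0.144 in E2F1_23_rev, 0.295 in E2F1_29_rev, 0.296 in E2F1_87, 0.703 in E2F1_11, 0.546 in E2F1_17, 0.498 in E2F1_20 and 0.808 in E2F1_20_rev. Under quantile normalization the medians were -0.774 and -0.822, limma called 9 (CPD), 16 (6-4PP) and 0 (difference) sequences, and 0 single-base and 0 name pairs in every comparison. At an unadjusted p under 0.05 there were 2 sequences for the difference, 33, 32 and 2 single-base pairs and 12, 13 and 2 name pairs. Over the whole array this setting called 8427, 6561 and 0 of 122095 sequences, 0 of 638305 single-base pairs and 0 of 2886 name pairs. E2F1_18 and E2F1_41_rev turned to -0.167 and -0.143 for 6-4PP, with neither called. Of the 73 lost calls among named items, 46 were lost under quantile normalization. The cause was not tested. Leaving out the dimmest 25% of sequences kept 33 E2F1 probes, 13 single-base pairs and 11 name pairs. In the E2F1 set it called 24, 23 and 19 probes, 4, 2 and 1 single-base pairs and 10, 10 and 0 name pairs (2 at an unadjusted p under 0.05) for CPD, 6-4PP and the difference, with medians of -0.375 and -0.767. The unadjusted intensity gave 74 probes, 19 single-base pairs and 3 name pairs for the difference. An offset of 100 gave a 6-4PP median of -1.499, and medians over spots gave 19 name pairs for the difference, against 5.

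Leaving out each array in turn gave 176 to 185 (CPD), 179 to 188 (6-4PP) and 65 to 104 (difference) sequences called; 41 to 51, 76 to 98 and 5 to 32 single-base pairs; 12 to 18, 25 to 38 and 2 to 9 name pairs; and medians of -1.148 to -1.013 and -1.562 to -1.516.

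A replicate block by array number gave 187, 190 and 118 sequences and 48, 106 and 43 single-base pairs. The labels do not say that a number pairs arrays, and it paired them in these data only between antibodies within a UV condition. Pairing the antibodies in that way, chosen after seeing the data, gave 148 sequences, 57 single-base pairs and 26 name pairs for the difference. Over all alternatives, 158 values of counts and medians stayed within their limits, 45 moved beyond them and 2 reversed. Of the values of named sequences and pairs, 887 kept direction and call, 73 lost the call and 17 reversed.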
